A study of Mus musculus with 12 samples.

Results

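Oxidative phosphorylation (OXPHOS) is carried out by 5 protein complexes of the inner mitochondrial membrane. Complexes I to IV pass electrons from NADH and succinate to oxygen, complexes I, III and IV pump protons on the way, and complex V, the ATP synthase, uses the proton gradient to make ATP. The mitochondrial genome encodes a few core subunits of complexes I, III, IV and V, and all other subunits, including the whole of complex II, are encoded in the nucleus, so that each mixed complex needs transcripts from both genomes. The genes were taken by name from the gene count table: protein-coding mouse genes whose symbols start with Ndufa, Ndufb, Ndufc, Ndufs, Ndufv, Uqcr, Cox4 to Cox8 or Atp5, the genes Sdha, Sdhb, Sdhc and Sdhd, and the mitochondrially encoded mt-Nd, mt-Co, mt-Cytb and mt-Atp genes. This gave 98 of 52636 genes, of which 85 were nuclear (38 of complex I, 4 of complex II, 8 of complex III, 18 of complex IV and 17 of complex V) and 13 were mitochondrially encoded. The names also brought in Cox7a2l, a supercomplex assembly protein, and Atp5s, a coupling factor, neither of them a core catalytic subunit. The rule did not reach Cyc1, the cytochrome c1 of complex III.

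RNA-seq had been done on skin of 3-month-old C57BL/6 mice in 4 groups of 3 libraries each, each library being a biological replicate by the study's methods. The groups were WT, WT+ZnO NPs, KO and KO+ZnO NPs, where KO skin lacked the GTPase Cdc42 in cells with K5-Cre activity, a keratin 5 promoter-driven recombinase of basal keratinocytes, and ZnO NPs were zinc oxide nanoparticles put on shaved back skin until day 14. Skin not given particles received the carrier (saline with hydroxypropyl methylcellulose). The K5 promoter is not active in dermis, fat, muscle or immune cells, so KO skin was not free of Cdc42. Because whole skin was sequenced, fewer cells of a type and less RNA per cell cannot be told apart.

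Total counts ranged from 21076320 to 28867802 per library, and markers of interfollicular keratinocytes were present in all 12 libraries (8 genes, 6017 to 26840 CPM summed). CPM here are counts scaled to a common library size after edgeR's trimmed mean (TMM) scaling. Cdc42 averaged 617 ± 11.2 CPM in WT, 439.7 ± 24.3 CPM in KO, 326 ± 21.1 CPM in libraries with the label WT+ZnO NPs and 377 ± 70.5 CPM in KO+ZnO NPs (SD, n = 3), so the level in WT+ZnO NPs lay below that of KO and went against what its label says of genotype. Y-linked transcripts (Ddx3y, Eif2s3y, Kdm5d and Uty) summed to 215 to 245 CPM (without TMM scaling) in the 3 WT+ZnO NPs libraries, KO replicate 1 and KO+ZnO NPs replicate 1, to 0.0452 in KO+ZnO NPs replicate 2 and to 0 in the other 6. Sex and particle treatment therefore cannot be told apart among the WT libraries, and every direction given for WT+ZnO NPs rests on its label. The study describes its KO mice as female, so the Y-linked transcripts in KO replicate 1 and KO+ZnO NPs replicate 1 went against that description too, and directions for KO groups also rest on their labels.

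The upstream sequences of 4 nuclear genes are shown first, because these genes were among those with the largest called differences at 10 CPM or more. Each line holds the 250 bases before the RefSeq start of the gene (GRCm38.p6), 5′ to 3′ on the gene's strand, with capitals marking a match to 1 of 3 motifs that are known for nuclear genes of mitochondria.
Atp5e, complex V epsilon subunit (chr2:174464102-174464351, - strand): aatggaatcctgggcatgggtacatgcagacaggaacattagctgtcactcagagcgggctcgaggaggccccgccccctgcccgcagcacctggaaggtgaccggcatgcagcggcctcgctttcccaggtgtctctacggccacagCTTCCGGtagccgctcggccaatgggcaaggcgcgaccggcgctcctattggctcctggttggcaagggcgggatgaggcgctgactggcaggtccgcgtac
Atp5k, complex V membrane subunit e (chr5:108434400-108434649, - strand): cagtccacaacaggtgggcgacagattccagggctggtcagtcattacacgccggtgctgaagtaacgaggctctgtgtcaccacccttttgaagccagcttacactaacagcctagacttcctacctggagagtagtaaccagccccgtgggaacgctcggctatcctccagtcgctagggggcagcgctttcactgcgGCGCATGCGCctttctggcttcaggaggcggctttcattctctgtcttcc
Cox7b, complex IV subunit (chrX:106015450-106015699, + strand): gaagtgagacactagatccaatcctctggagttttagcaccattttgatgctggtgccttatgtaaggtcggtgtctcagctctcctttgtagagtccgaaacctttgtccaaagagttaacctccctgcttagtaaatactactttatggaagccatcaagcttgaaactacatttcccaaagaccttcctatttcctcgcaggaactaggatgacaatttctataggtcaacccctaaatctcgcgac
Ndufa4, named for complex I and known as a subunit associated with complex IV (chr6:11907451-11907700, - strand): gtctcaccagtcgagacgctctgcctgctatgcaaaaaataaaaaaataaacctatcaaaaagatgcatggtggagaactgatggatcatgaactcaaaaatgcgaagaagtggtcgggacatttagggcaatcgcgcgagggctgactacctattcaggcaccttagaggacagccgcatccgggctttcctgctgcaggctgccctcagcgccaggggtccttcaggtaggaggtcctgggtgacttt
The capitals in Atp5e mark CCGGAAG, the core letters bound by the ETS factor GABPA, read on the opposite strand from position -102 before the start. The capitals in Atp5k mark GCGCANGCGC, the letters of the NRF1 motif, from position -50, and Atp5k also held a GABPA match in the 50 bases after its start, which are not shown. No match to either, or to the YY1 motif AANATGGCG, lay in the 250 bases of Cox7b or Ndufa4. All 3 motifs were searched on both strands in windows of 300 bases (250 before to 50 after the start), and RefSeq held a window for 69 of the 85 nuclear genes. The NRF1 letters were in 16 of the 69 windows (23.2%) and in 4.78% of all 27025 windows, 1 a gene. The GABPA letters were in 15 of 69 (21.7%) against 9.12% of all, and the YY1 letters in 8 of 69 (11.6%) against 2.51% of all. The OXPHOS windows held a median of 19 CpG dinucleotides against 7 over all windows. These matches describe the letters and were not tested for binding.

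The most abundant OXPHOS transcripts per length came from the mitochondrial genome. On the scale of CPM per kilobase of annotated exon, averaged over the 12 libraries, mt-Co1 (catalytic subunit of complex IV) stood at 9059, mt-Cytb (complex III) at 5599 and mt-Nd1 (complex I) at 4893. The 7 highest of the 98 genes were mitochondrial, ending with mt-Nd6 at 1359. The highest nuclear genes were Cox6a1 at 509.7, Cox8a at 415 and Atp5b, the catalytic beta subunit of the ATP synthase, at 318 CPM per kilobase, beside a median of 80.2 for the 85 nuclear genes. In total counts, the 85 nuclear genes held 0.887 to 1.72% of a library and the 13 mitochondrial genes 2.35 to 5.14%. A low-value filter left 83 of 85 nuclear genes and all 13 mitochondrial genes for testing. Cox7b2 had no count in any library and Cox8c had counts in 1 library only.

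The nuclear genes together were lowest in KO. Their summed level was 12270, 12090 and 12380 CPM in WT, 16600, 12380 and 14100 CPM in WT+ZnO NPs, 10480, 9098 and 9605 CPM in KO, and 13110, 16900 and 16980 CPM in KO+ZnO NPs. All 3 KO libraries lay below the other 9, and WT+ZnO NPs replicate 2 bordered on WT. The mean log2 difference was -0.34 for KO against WT, 0.22 for WT+ZnO NPs against WT and 0.68 for KO+ZnO NPs against KO. An exact permutation test (two-sided) gave p = 0.1 for each of these, which is the smallest that 3 against 3 libraries allow, and p = 0.5 for KO+ZnO NPs against WT+ZnO NPs, at 0.13, where the groups overlapped.

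The mitochondrial transcripts took a larger share of the counts in both particle groups. They took 2.74, 2.35 and 3.12% of all counts in WT, 2.51, 2.40 and 2.84% in KO, 5.14, 3.84 and 3.59% in WT+ZnO NPs, and 4.12, 3.87 and 4.57% in KO+ZnO NPs. All 6 particle libraries lay above all 6 others. The share was 1.52-fold higher in WT+ZnO NPs than in WT (log2 difference 0.61) and 1.62-fold higher in KO+ZnO NPs than in KO (0.70), with p = 0.1 for both by exact permutation, the smallest possible. For KO against WT the log2 difference was -0.08 (exact permutation p = 0.7) and for KO+ZnO NPs against WT+ZnO NPs it was 0.01 (exact permutation p = 0.9), and the groups overlapped in both. The ratio of mitochondrial to nuclear summed CPM lay between 1.97 and 3.19, and its ranges overlapped in all 4 comparisons, with p from 0.2 to 0.8 by exact permutation.

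**Figure D1:**
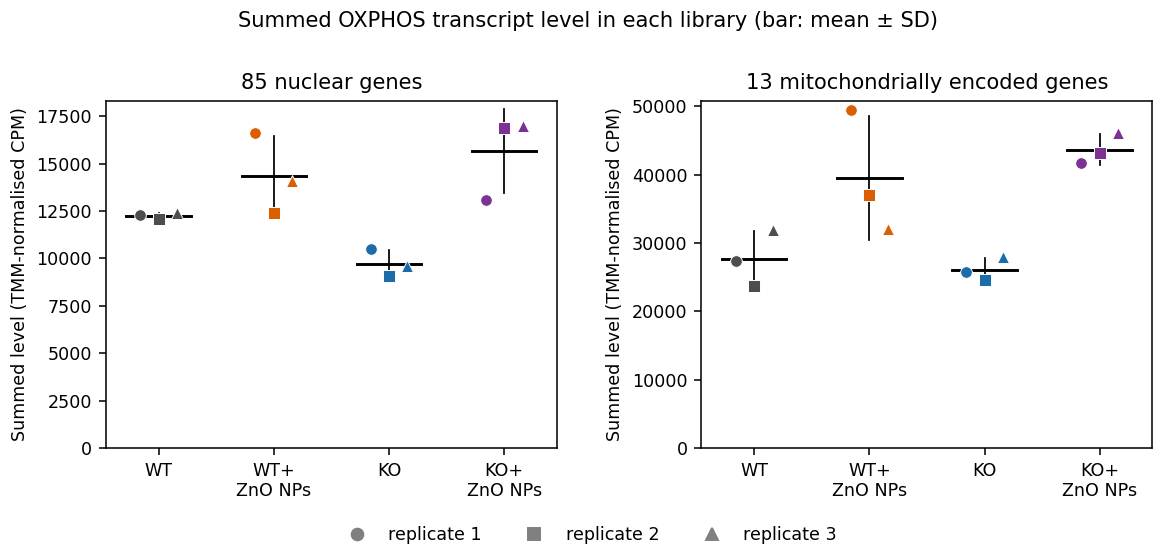
Summed TMM-normalised CPM of the 85 nuclear (left) and 13 mitochondrially encoded (right) OXPHOS genes in each of 12 libraries, with marker shapes for replicates and black bars for the group mean ± SD (n = 3). The nuclear sum was lowest in KO (9098 to 10480), and the mitochondrial sum lay at 32010 or more in the 6 particle libraries against 31860 or less in the 6 others.

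Deleting Cdc42 without particles went with lower levels of subunit transcripts from the nucleus, few of them past the test, while the mitochondrial transcripts had values on both sides of 0. In KO against WT, the quasi-likelihood test of edgeR, its p-values adjusted by Benjamini-Hochberg over 18822 genes, called 6 of 83 nuclear genes lower and 0 higher. The background was 8.18% of all genes called, 4.61% higher and 3.58% lower. DESeq2 called 22 nuclear genes lower and 0 higher, and 3003 of 33243 genes of the whole table. The median log2 fold change of the nuclear genes was -0.37 (all genes 0.01), 79 of 83 lay below 0, and 41 had an unadjusted p below 0.05. For 68 of 83 the highest KO library was under the lowest WT library, against 19.9% of all genes. By complex, the nuclear medians ran from -0.34 for complexes I and III to -0.47 for complex II. Of the 13 mitochondrial genes edgeR called 0, 1 had an unadjusted p below 0.05, and the median was -0.08. DESeq2 called 1 mitochondrial gene higher.

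The 6 genes lower in KO were Ndufa4, Ndufb3, Ndufb6, Ndufb8 and Ndufc2, the last 4 being accessory subunits of the complex I membrane arm, and Atp5l, subunit g of the ATP synthase. Ndufa4 (chr6:11900292-11907497, - strand) stood at 281, 290.5 and 252 CPM in WT and 182, 165 and 169 CPM in KO. The groups did not overlap, and the log2 fold change was -0.67 (SE 0.16, adjusted p = 0.0329) by edgeR's quasi-likelihood test. Ndufb3 (chr1:58586384-58595964, + strand) stood at 79.8, 75.3 and 86.2 CPM in WT and 56.1, 47.0 and 52.7 CPM in KO, without overlap, a log2 fold change of -0.63 (SE 0.15, adjusted p = 0.0341) in edgeR. Ndufb6 (chr4:40270591-40279421, - strand) stood at 52.9, 68.1 and 55.1 CPM in WT and 39.9, 35.8 and 38.2 CPM in KO, without overlap, a log2 fold change of -0.63 (SE 0.12, adjusted p = 0.0146) in edgeR. Ndufb6 shares 31.6% of its 50-base stretches with the gene Smim27 on the opposite strand, so reads of the pair could be mixed. The call count rested on few libraries, being 1 without WT replicate 1, 0 without WT replicate 2, 1 without WT replicate 3, 2, 0 and 1 without KO replicates 1, 2 and 3, 3 without WT+ZnO NPs replicate 3, and 12 and 10 without KO+ZnO NPs replicates 1 and 2. Calls over all genes ran from 377 to 2060 when 1 library was left out, beside 1540 of 18822 with all 12. With Y-linked transcripts as a covariate 1 OXPHOS gene was called, and with edgeR on only these 6 libraries 38 were. Over all genes these 2 settings called 962 of 18822 and 2794 of 17608. Skeletal muscle markers (15 genes, 14 tested, 1 lower) summed to 7180 to 8419 CPM in WT and 2198 to 7367 CPM in KO, Tnnc2 being at 0 in WT replicate 3 and all KO libraries, and anagen hair follicle markers (8 genes, 7 higher) to 4.91 to 10.3 CPM and 28.7 to 10220 CPM, Krt31 being at 0 in WT replicate 2 and KO replicate 2 and Krt71 and Krt73 in WT replicate 2. Brown adipocyte markers (6 genes, 5 tested, 0 called by edgeR) summed to 74.1 to 168 CPM in WT and 55.4 to 91.2 CPM in KO. Elovl3 and Cidea had the highest means of these 6 genes over the 12 libraries. Sums of 4 other lists, with 0 genes called by edgeR in each, did not overlap between WT and KO. Fibroblast markers (6 genes, 4 at an unadjusted p below 0.05, 3 called by DESeq2) summed to 7049 to 13900 CPM in WT and 23170 to 37280 CPM in KO, and interfollicular keratinocyte markers (8 genes, 4 and 3) to 8011 to 12180 CPM and 14540 to 26840 CPM. Adipocyte markers (8 genes, 1 and 1) summed to 7509 to 10420 CPM and 3658 to 6228 CPM, and endothelial markers (4 genes, 1 and 0) to 471 to 502 CPM and 283 to 344 CPM. Of 6 immune markers edgeR called 1 higher, Cd74. The part of these cells in the OXPHOS differences was not tested.

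In libraries labelled WT+ZnO NPs against WT, a minority of both nuclear and mitochondrial genes rose, in a comparison in which a large share of all genes differed. Here edgeR's quasi-likelihood test called 21 of 83 nuclear genes higher and 1 lower, and 3 of 13 mitochondrial genes higher and 0 lower. The background was 43.0% of all genes called, with 20.8% higher and 22.1% lower, so nuclear OXPHOS genes were called higher at a share somewhat above that of all genes and called lower at a share far below it. DESeq2 called 19 nuclear genes higher and 1 lower and 5 mitochondrial genes higher and 0 lower, and 8992 of 33243 genes of the whole table. Median log2 fold changes were 0.25 for nuclear genes and 0.58 for mitochondrial genes (all genes 0.06). For 32 of 83 nuclear genes every WT+ZnO NPs library was above every WT library, against 30.1% of all genes, and for 1 the reverse held, against 29.3%. Complex II had 0 of 4 called, with 0 at an unadjusted p below 0.05 and a median of 0.04. The nuclear genes called higher included 11 of complex I, 1 of complex III (Uqcrc1, a core protein), 3 of complex IV and 6 of complex V.

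Atp5g1, 1 of 3 genes for the c subunit of the ATP synthase ring (chr11:96068852-96075670, - strand), stood at 92.2, 93.2 and 86.9 CPM in WT and 180.3, 122 and 165 CPM in WT+ZnO NPs. The groups did not overlap, and the log2 fold change was 0.78 (SE 0.23, adjusted p = 0.0179) in edgeR, with a call in 18 of 21 alternatives. The other ring genes Atp5g2 and Atp5g3 also rose, with log2 fold changes of 0.60 (SE 0.14, adjusted p = 0.00599) and 0.51 (SE 0.15, adjusted p = 0.0192) in edgeR. Atp5k (chr5:108433244-108434448, - strand) stood at 73.8, 67.6 and 77.1 CPM in WT and 172, 90.6 and 108 CPM in WT+ZnO NPs, with WT+ZnO NPs replicate 1 far above the other two and no overlap. Its log2 fold change was 0.76 (SE 0.24, adjusted p = 0.0255) in edgeR, and it was called in 16 of 21 alternatives, among the 5 others being those without WT+ZnO NPs replicate 1 and with Y-linked transcripts as a covariate. Ndufb2, an accessory subunit of complex I at a low level (chr6:39592574-39603382, + strand), stood at 10.6, 8.32 and 10.4 CPM in WT and 20.2, 14.4 and 16.2 CPM in WT+ZnO NPs, without overlap, a log2 fold change of 0.79 (SE 0.22, adjusted p = 0.0141) in edgeR. It was called in 19 of 21 alternatives. Cox6b2, a copy of a complex IV subunit typical of testis, averaged 6.53 CPM over the 12 libraries and was also called, at 1.21 (SE 0.35, adjusted p = 0.0181) in edgeR.

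Ndufa4 moved against this direction. It stood at 231, 152 and 170.1 CPM in WT+ZnO NPs, all below the 3 WT libraries, a log2 fold change of -0.57 (SE 0.16, adjusted p = 0.0164) in edgeR, and it was the only OXPHOS gene called lower there. Ndufa4 was called in 17 of 21 alternatives. The others were the covariate for Y-linked transcripts and the fits without WT replicate 2, WT+ZnO NPs replicate 2 or WT+ZnO NPs replicate 3. The count of 25 genes called was 14, 10 and 14 without WT replicates 1, 2 and 3, 11 and 13 without WT+ZnO NPs replicates 1 and 3, 14 with no filter on low counts and 8 with Y-linked transcripts as a covariate. Scaling by library size alone moved the median of all genes to 0.16 and called 36 OXPHOS genes and 8331 of 18822 genes of the whole table. Calls over all genes were 8085 of 18822 in the main fit, 3896 of 18822 with the covariate and 7358 of 33243 with no filter. Immune markers (6 genes, 5 lower, 0 of them at 0 in any library) summed to 2774 to 3486 CPM in WT and 357 to 729 CPM in WT+ZnO NPs, adipocyte markers (8 genes, 5 lower) to 7509 to 10420 CPM and 1598 to 3285 CPM, and anagen hair follicle markers (8 genes, 8 higher) to 4.91 to 10.3 CPM and 955 to 4407 CPM. Skeletal muscle markers (15 genes, 14 tested, 2 higher) summed to 7180 to 8419 CPM in WT and to 30200, 8255 and 14340 CPM in WT+ZnO NPs replicates 1 to 3, the same order as the nuclear OXPHOS sums of these libraries, with Tnnc2 at 0 in WT replicate 3 and WT+ZnO NPs replicate 2. Brown adipocyte markers (6 genes, 5 tested, 1 higher) summed to 74.1 to 168 CPM and 268 to 665 CPM, without overlap, with Ucp1 at 0 in WT replicate 3 and WT+ZnO NPs replicate 3. In WT+ZnO NPs replicates 1 to 3 most of this sum was Elovl3 (486, 180 and 207 CPM) and Cidea (159, 73.7 and 88.6 CPM). Endothelial markers (4 genes, 4 lower) summed to 471 to 502 CPM in WT and 85.7 to 202 CPM in WT+ZnO NPs. Interfollicular keratinocyte markers (8 genes, 4 lower, 1 higher, median log2 fold change -1.95) summed to 8011 to 12180 CPM and 6017 to 10130 CPM, which overlapped. Of 6 fibroblast markers 1 was higher and 2 lower, and of 6 sebocyte markers 1 was lower. The part of these cells was not tested.

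The widest difference over the OXPHOS genes lay between KO+ZnO NPs and KO. Here edgeR's quasi-likelihood test called 66 of 83 nuclear genes higher and 0 lower, and 5 of 13 mitochondrial genes higher and 0 lower, where 14.7% of all genes were called, 6.57% higher and 8.09% lower. DESeq2 called 74 nuclear and 7 mitochondrial genes higher and 0 lower, and 4236 of 33243 genes of the whole table. The median log2 fold change was 0.71 for nuclear and 0.75 for mitochondrial genes, against 0.01 for all genes. In 75 of 83 nuclear genes every KO+ZnO NPs library lay above every KO library, against 17.0% of all genes. All 8 nuclear genes of complex III were called higher, as were 33 of 38 of complex I, 14 of 17 of complex V, 10 of 16 of complex IV and 1 of 4 of complex II. Without the 5 tissue-typical copies Cox6a2, Cox7a1, Cox8b, Cox6b2 and Ndufa4l2 (left out after seeing the data) the nuclear median was 0.70.

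Atp5e (chr2:174461072-174464105, - strand), whose epsilon subunit sits on the rotor of the ATP synthase, stood at 128, 101 and 108 CPM in KO and 193, 314 and 282 CPM in KO+ZnO NPs. All KO libraries were lower, and the log2 fold change was 1.23 (SE 0.20, adjusted p = 0.00755) in edgeR. Cox7b (chrX:106015700-106022450, + strand) stood at 135, 115 and 131 CPM in KO and 233, 333 and 301 CPM in KO+ZnO NPs, without overlap, a log2 fold change of 1.18 (SE 0.19, adjusted p = 0.00754) in edgeR. Both genes were called in all 22 alternatives. Atp5k stood at 58.1, 44.1 and 55.6 CPM in KO and 84.7, 127 and 135 CPM in KO+ZnO NPs, without overlap, a log2 fold change of 1.13 (SE 0.24, adjusted p = 0.0162) in edgeR. Of the 22 alternatives, Atp5k missed the threshold in 1, without KO replicate 2.

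Leaving out KO replicate 2 cut the count of 71 genes to 17, and leaving out KO replicate 3 cut it to 34, while the nuclear median stayed at 0.67 and 0.68. With edgeR on only these 6 libraries 19 were called, with a nuclear median of 0.70. The calls over all genes fell as well, from 2759 of 18822 to 451 of 19296, 1055 of 19398 and 571 of 17613 in these 3 settings. With only libraries without Y-linked transcripts (2 KO against 2 KO+ZnO NPs) 69 nuclear and 2 mitochondrial genes were called and the nuclear median was 0.89. Over all genes 2370 of 18532 were called there. Skeletal muscle markers (15 genes, 14 tested, 2 higher) summed to 2198 to 7367 CPM in KO and 4111 to 23080 CPM in KO+ZnO NPs, with Tnnc2 at 0 in all KO libraries and in KO+ZnO NPs replicates 1 and 2. Immune markers (6 genes, 6 lower) summed to 2252 to 3744 CPM and 742 to 1182 CPM. Fibroblast markers (6 genes, 1 lower, Pdgfra) summed to 23170 to 37280 CPM and 15750 to 21470 CPM, without overlap, and sebocyte markers (6 genes, 1 higher, Awat1) to 3510 to 8467 CPM and 2220 to 16770 CPM, which overlapped. Brown adipocyte markers (6 genes, 5 tested, 2 higher) summed to 55.4 to 91.2 CPM and 196 to 619 CPM, without overlap, with Ucp1 at 0 in KO+ZnO NPs replicate 3, and Elovl3 had 2.76 (SE 0.62, adjusted p = 0.0194) in edgeR. In KO+ZnO NPs replicates 1 to 3 most of this sum was Elovl3 (161, 132 and 358.5 CPM) and Cidea (59.9, 47.2 and 246 CPM). Muscle sums in KO+ZnO NPs replicates 1 to 3 were 4111, 17240 and 23080 CPM beside nuclear OXPHOS sums of 13110, 16900 and 16980 CPM. The part of these cells was not tested.

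**Figure D2:**
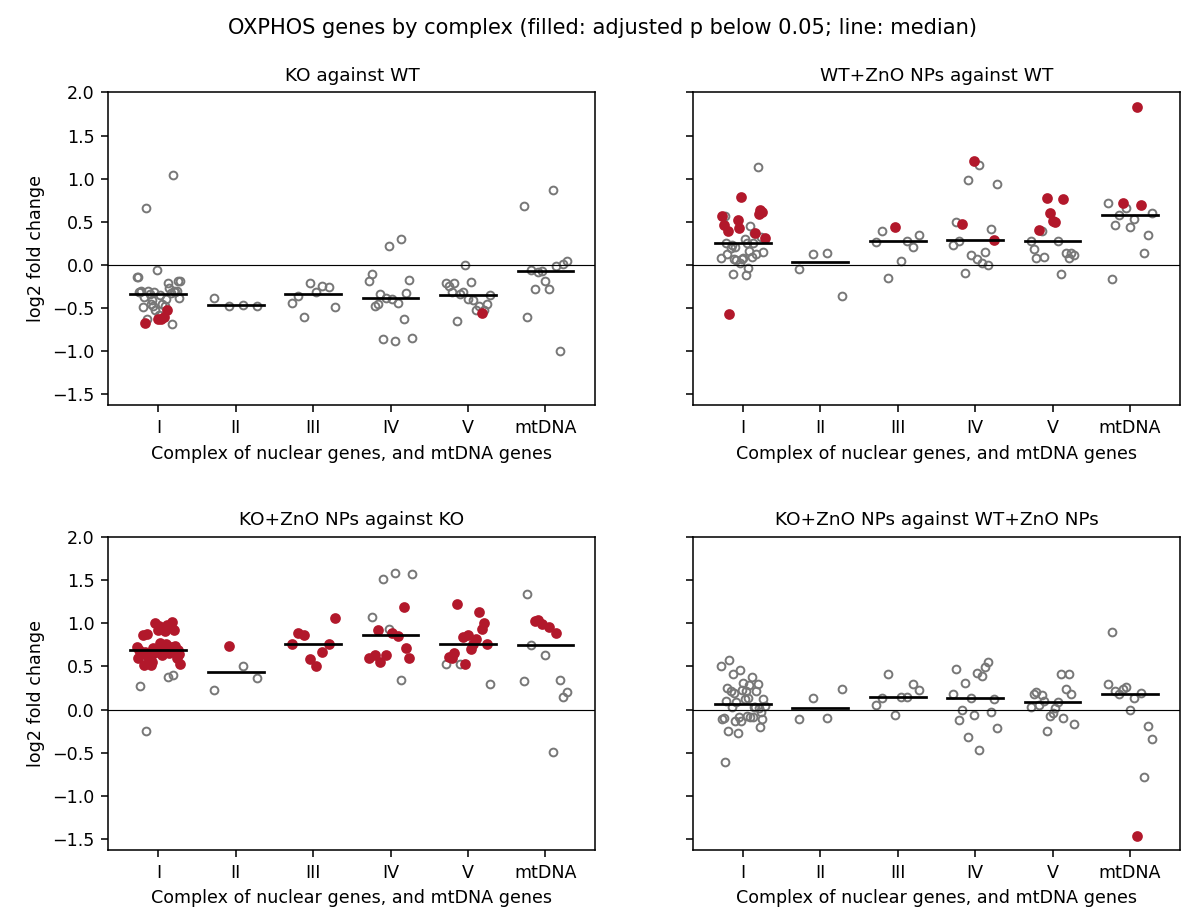
Log2 fold change (y axis) of the 96 tested OXPHOS genes by complex for nuclear genes, with the mitochondrially encoded genes last, in the 4 comparisons. Each circle is a gene, filled red where the adjusted p in edgeR was below 0.05, and lines are medians. In KO+ZnO NPs against KO 66 nuclear and 5 mitochondrial genes are filled, and in KO against WT 6.

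Few of these genes passed the test between particle-treated KO and WT skin. In KO+ZnO NPs against WT+ZnO NPs, edgeR's quasi-likelihood test called 0 of 83 nuclear genes, 11 of which had an unadjusted p below 0.05, while DESeq2 called 4 nuclear genes higher. Of 13 mitochondrial genes edgeR called 1, mt-Nd3, lower, as did DESeq2. Of all genes edgeR called 3.28%, 2.13% higher and 1.16% lower, and DESeq2 called 2287 of 33243. The median log2 fold change was 0.10 for nuclear and 0.18 for mitochondrial genes (all genes 0.04). Scaling by library size alone put the nuclear median at -0.05 and that of all genes at -0.11, so the nuclear median lay above that of all genes under both scalings. Without WT+ZnO NPs replicate 1 the nuclear median was 0.23, without replicate 2 it was -0.01, and the count of 1 became 2 without WT+ZnO NPs replicate 1, 4 without KO+ZnO NPs replicate 3, and 0 without any 1 of WT replicates 1 to 3, WT+ZnO NPs replicate 3, KO replicate 3 and KO+ZnO NPs replicates 1 and 2.

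The 4 comparisons share groups. KO enters both the comparison with WT and that with KO+ZnO NPs, and a low KO level puts the former below 0 and the latter above 0, so the side-by-side values of a gene in these are not independent. The comparisons of particles with no particles in WT and in KO share no library.

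Whether the particle difference itself depended on genotype was tested as an interaction, where a positive log2 value means a higher difference in KO than in WT skin. In this test edgeR called 11 of 83 nuclear genes positive and 0 negative, with 34 at an unadjusted p below 0.05, and 1 of 13 mitochondrial genes, mt-Nd3, negative. Of all genes 8.68% were called, 5.08% positive and 3.59% negative. DESeq2 called 24 nuclear genes positive and 0 negative, 1 mitochondrial gene negative, and 3129 of 33243 genes of the whole table. The nuclear median was 0.44 and the mitochondrial 0.21, against 0.02 for all genes. The 11 genes were Ndufa4, Ndufb3, Ndufb4, Ndufb6, Ndufb8, Ndufb11 and Ndufc2 of complex I by name, Cox6a1 and Cox7b of complex IV, and Atp5l and Atp5mpl of complex V. None belonged to complexes II or III, where 2 of 4 and 5 of 8 genes had an unadjusted p below 0.05. Of cell type markers, edgeR called 6 of 8 of the anagen hair follicle negative in this test. It called 2 of 6 immune, 1 of 4 endothelial and 1 of 8 adipocyte markers positive. Markers of skeletal muscle, brown adipocytes, interfollicular keratinocytes, sebocytes and fibroblasts had 0 called. The part of these cells was not tested.

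Among the genes called, Ndufa4 had the highest interaction value, 1.25 (SE 0.23, adjusted p = 0.0135) in edgeR, while the higher value of mt-Atp8 was not called (adjusted p = 0.160). Levels of Ndufa4 were highest in the groups at the opposite corners of the design, WT (274 ± 19.9 CPM) and KO+ZnO NPs (274 ± 34.2 CPM), and lower in WT+ZnO NPs (184 ± 41.5 CPM) and KO (172 ± 8.62 CPM; SD, n = 3). Cox7b stood at 204, 184 and 201 CPM in WT and 252, 156 and 182 CPM in WT+ZnO NPs, which overlapped, beside the KO and KO+ZnO NPs values given above, an interaction of 1.18 (SE 0.26, adjusted p = 0.0258) in edgeR. Ndufb11 (chrX:20615326-20617619, - strand), a complex I membrane-arm subunit, had 156, 160.5 and 144 CPM in WT, 184, 128 and 154 CPM in WT+ZnO NPs, 115, 97.7 and 107 CPM in KO and 173, 241 and 229 CPM in KO+ZnO NPs. WT and WT+ZnO NPs overlapped, KO and KO+ZnO NPs did not, and the interaction was 0.99 (SE 0.23, adjusted p = 0.0283) in edgeR. Cox7b and Ndufb11 lie on the X chromosome. With Y-linked transcripts as a covariate 0 OXPHOS genes were called in the interaction, 14 having an unadjusted p below 0.05, and the nuclear median was 0.30, while calls over all genes fell from 1633 to 125 of 18822. The count of 12 was also 7 with library-size scaling, with no low-count filter, with the replicate number as a block, and without any 1 of WT+ZnO NPs replicate 2 and KO+ZnO NPs replicates 2 and 3. It was 3, 2 and 3 without WT replicates 1 to 3, 5, 3 and 3 without KO replicates 1 to 3, 2 without WT+ZnO NPs replicate 3, 20 without WT+ZnO NPs replicate 1 and 21 without KO+ZnO NPs replicate 1.

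**Figure D3:**
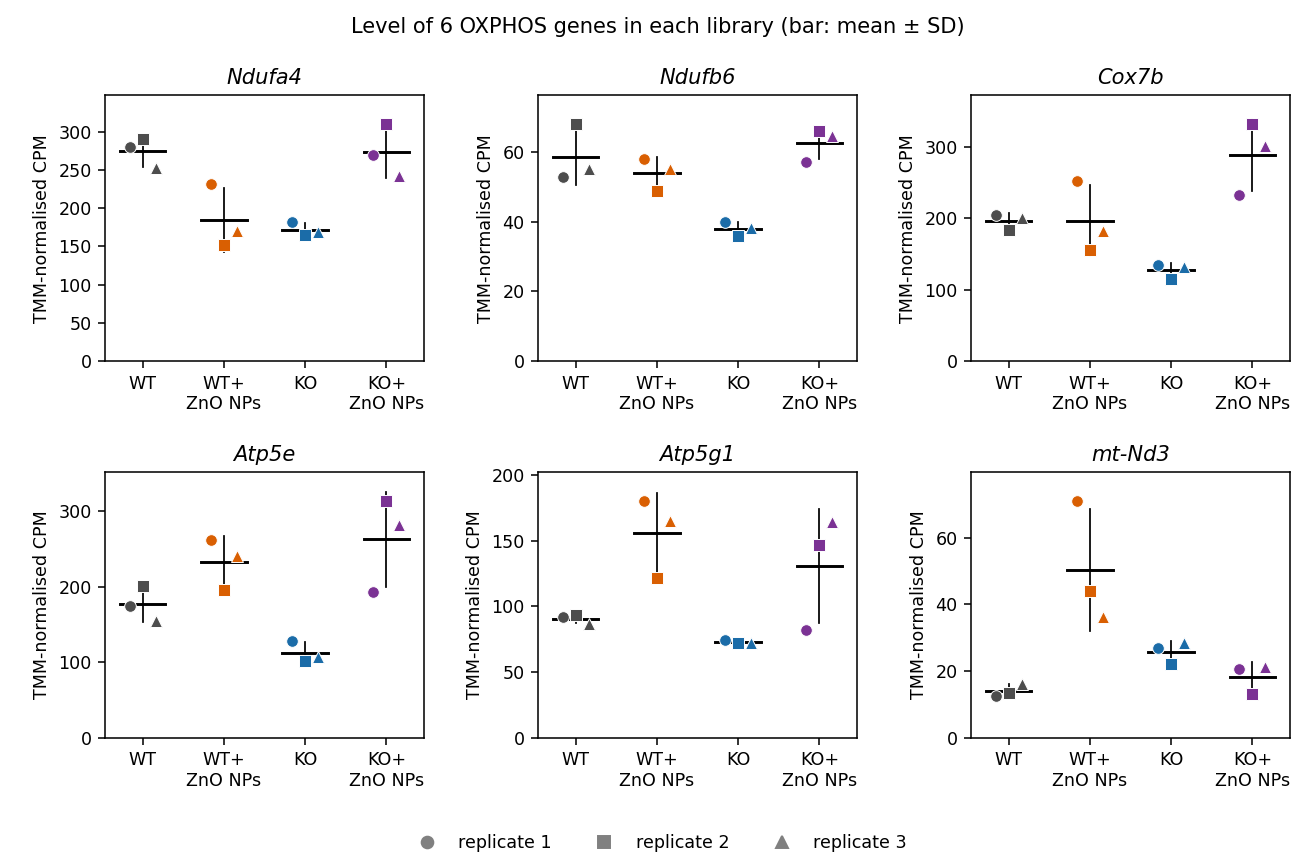
TMM-normalised CPM of 6 OXPHOS genes in each library, with marker shapes for replicates and black bars for the group mean ± SD (n = 3). Ndufa4 is low in WT+ZnO NPs and KO, Cox7b and Atp5e are lowest in KO, and mt-Nd3 is highest in WT+ZnO NPs (36.2 to 71.1 CPM).

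Complex II, succinate dehydrogenase, links the tricarboxylic acid cycle to the respiratory chain and has all of its 4 subunits encoded in the nucleus. Sdhb, the iron-sulfur subunit, stood at 114, 93.8 and 113 CPM in KO and 152, 204 and 177 CPM in KO+ZnO NPs and was the only 1 of the 4 called there, at 0.74 (SE 0.15, adjusted p = 0.0126) in edgeR. Sdha, the flavoprotein, stood at 261, 202 and 282 CPM in KO and 293, 241 and 337 CPM in KO+ZnO NPs, and the groups overlapped. Its log2 fold change was 0.23 (SE 0.18, adjusted p = 0.419) in edgeR. The membrane anchors Sdhc and Sdhd had log2 fold changes of 0.50 (SE 0.18, adjusted p = 0.0873) and 0.36 (SE 0.16, adjusted p = 0.146) in edgeR. In KO against WT, none of the 4 passed in edgeR, 3 had an unadjusted p below 0.05, and in all 4 each KO library lay below each WT library, with log2 fold changes from -0.48 to -0.38.

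Several subunits of complex IV exist as a widely used copy and a copy typical of heart and skeletal muscle. The widely used copies Cox6a1, Cox7a2 and Cox8a were called higher in KO+ZnO NPs against KO, with log2 fold changes of 0.55 (SE 0.12, adjusted p = 0.0166), 0.85 (SE 0.17, adjusted p = 0.0138) and 0.59 (SE 0.11, adjusted p = 0.00948) in edgeR. The muscle copies had higher values with wider errors. Cox6a2 stood at 67.9, 41.3 and 49.2 CPM in WT, 177, 51.3 and 84.4 CPM in WT+ZnO NPs, 45.5, 16.1 and 26.1 CPM in KO and 27.6, 85.9 and 137 CPM in KO+ZnO NPs. The groups overlapped, and for KO+ZnO NPs against KO the log2 value was 1.51 (SE 0.60, adjusted p = 0.107) in edgeR. Cox7a1 and Cox8b had 1.58 (SE 0.63, adjusted p = 0.111) and 1.57 (SE 0.53, adjusted p = 0.0692) in edgeR, and none of the 3 passed in any comparison. The 3 copies were highest in WT+ZnO NPs replicate 1 and KO+ZnO NPs replicate 3 and lowest in KO replicate 2, as were the 15 skeletal muscle markers (30200, 23080 and 2198 CPM summed) and the 6 brown adipocyte markers (665, 619 and 55.4 CPM summed). Cox7a1 and Cox8b are also known as copies of brown fat. Most of the brown adipocyte sum was Elovl3 and Cidea in WT+ZnO NPs replicate 1 (486 and 159 CPM) and in KO+ZnO NPs replicate 3 (358.5 and 246 CPM). Which cells the copies came from was not tested. Cox4i2, an oxygen-responsive copy typical of lung, stood at 1.73 to 7.21 CPM beside 319 to 543 CPM of Cox4i1. Cox4i1 rose in KO+ZnO NPs against KO, at 0.60 (SE 0.13, adjusted p = 0.0152) in edgeR, and Cox4i2 had 1.08 (SE 0.34, adjusted p = 0.0552). Ndufa4l2, a hypoxia-linked relative of Ndufa4, ranged from 25.5 CPM in WT replicate 2 to 130.3 CPM in KO replicate 2 and was called in no comparison.

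**Figure D4:**
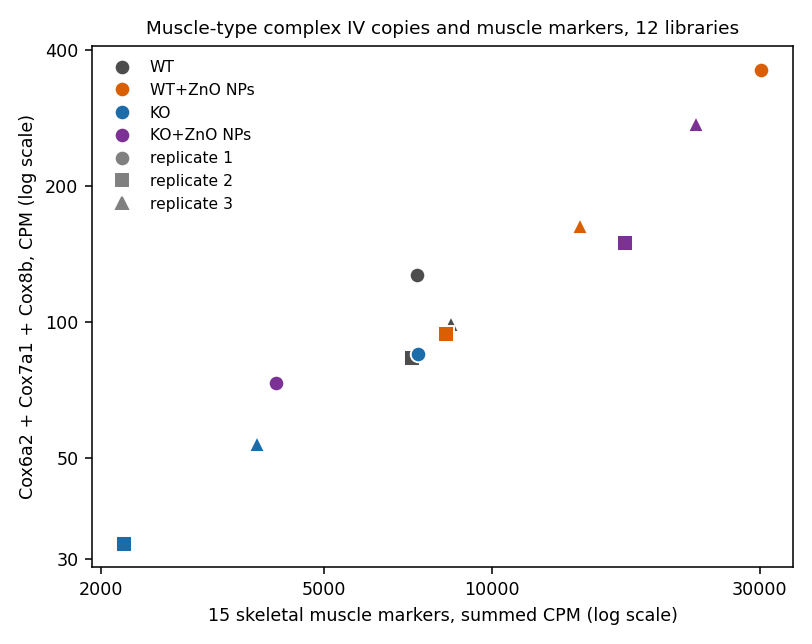
Summed CPM of the muscle-type complex IV copies Cox6a2, Cox7a1 and Cox8b (y axis, log scale) against summed CPM of 15 skeletal muscle markers (x axis, log scale) in 12 libraries, coloured by group, with shapes for replicates. The copies range from 32.4 CPM (KO replicate 2) to 361 CPM (WT+ZnO NPs replicate 1), and the 4 libraries with the most muscle marker RNA are also the 4 with the most of the copies. Brown adipocyte markers, not plotted, were likewise lowest in KO replicate 2 and highest in WT+ZnO NPs replicate 1.

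Of the 13 mitochondrial genes, mt-Co1, mt-Cytb, mt-Nd1, mt-Nd2, mt-Nd4, mt-Nd5 and mt-Nd6 had 3959 to 471912 counts a library and the other 6 had 21 to 3026. In KO+ZnO NPs against KO the genes called higher were mt-Co2, mt-Co3, mt-Cytb, mt-Nd2 and mt-Nd4. Of these 5, mt-Co2, mt-Cytb, mt-Nd2 and mt-Nd4 missed the threshold without any 1 of the KO libraries, and the mitochondrial count was then 1, 1 and 2 without KO replicates 1 to 3 and 2 with edgeR on only the libraries compared. Mt-Cytb, the only mitochondrial gene of complex III, stood at 4581, 3946 and 4935 CPM in KO and 7823, 9967 and 9012 CPM in KO+ZnO NPs, without overlap, a log2 fold change of 0.99 (SE 0.25, adjusted p = 0.0289) in edgeR. Mt-Co1, the most abundant, stood at 10490, 10830 and 11230 CPM in KO and 16930, 19560 and 18070 CPM in KO+ZnO NPs, also without overlap, at 0.75 (SE 0.27, adjusted p = 0.0828) in edgeR. In WT+ZnO NPs against WT the genes called higher were mt-Nd3, mt-Co3 and mt-Nd4. Mt-Co3, a core subunit of complex IV, stood at 38.7, 32.9 and 41.4 CPM in WT and 80.9, 55.6 and 49.1 CPM in WT+ZnO NPs, without overlap, at 0.72 (SE 0.18, adjusted p = 0.00903) in edgeR, and was called higher in both particle comparisons under every alternative. It shares 99.9% of its 50-base stretches with Gm28437, a copy on chromosome 1 that held 461 to 1130 counts a library. None of the alternatives changed which of the pair a read was given to. Within-group spread was wider for mitochondrial genes (median pooled SD 0.33 on the log2 scale) than for nuclear genes (0.19).

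Mt-Nd5 and mt-Nd6 stood apart in 1 library. KO+ZnO NPs replicate 2 had 1211 CPM of mt-Nd5 against 3878 and 3830 CPM in its 2 partners, and 199.5 CPM of mt-Nd6 against 897 and 1030 CPM, while its mt-Co1, mt-Cytb, mt-Nd2 and mt-Nd4 were the highest of that group. Mt-Nd1, at 3956 CPM against 5967 and 6685 CPM, was also lower there. Neither mt-Nd5 nor mt-Nd6 was called in any comparison. On the opposite strand, mt-Nd6 begins at chrM:13552 and mt-Nd5 ends at chrM:13565, so without stranded counting reads could be mixed over this short annotated overlap.

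**Figure D5:**
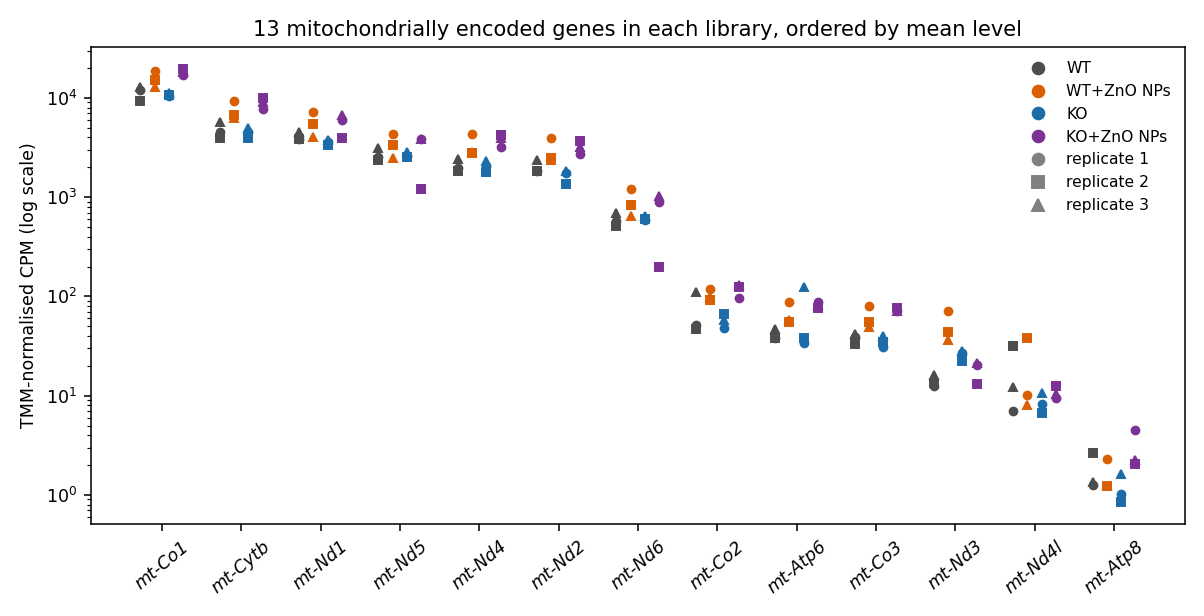
TMM-normalised CPM (log scale) of the 13 mitochondrially encoded genes in each library, ordered by mean level, coloured by group with marker shapes for replicates. Levels run from 19560 CPM of mt-Co1 in KO+ZnO NPs replicate 2 down to 0.844 CPM of mt-Atp8 in KO replicate 2, and KO+ZnO NPs replicate 2 lies low in mt-Nd5 (1211 CPM) and mt-Nd6 (199.5 CPM).

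Mt-Nd3, a small core subunit of complex I, had the largest log2 differences among the OXPHOS genes called. It was counted 300, 385 and 383 times in WT, 1777, 962 and 916 in WT+ZnO NPs, 630, 554 and 644 in KO and 470, 261 and 486 in KO+ZnO NPs. In CPM it stood at 12.6, 13.5 and 16.3 in WT, 71.1, 44.0 and 36.2 in WT+ZnO NPs, 26.8, 22.3 and 28.4 in KO and 20.5, 13.2 and 21.2 in KO+ZnO NPs. WT+ZnO NPs lay above all other libraries and WT below all KO libraries, while KO+ZnO NPs overlapped with WT. The log2 fold change was 1.84 (SE 0.26, adjusted p = 0.000408) for WT+ZnO NPs against WT, -1.46 (SE 0.26, adjusted p = 0.0304) for KO+ZnO NPs against WT+ZnO NPs and -2.33 (SE 0.37, adjusted p = 0.00808) for the interaction, in edgeR. For KO+ZnO NPs against KO edgeR gave -0.50 (SE 0.26, adjusted p = 0.205), opposite in sign to the other 12 mitochondrial genes.

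The counts of mt-Nd3 depend on which of 2 nearly identical places a read is given to. The gene (chrM:9459-9806, + strand, 348 bases) has an annotated copy in the nuclear genome, Gm28438 (chr1:24612775-24613119, - strand, 345 bases), in a block of mitochondrial copies at chr1:24611535-24616197. The first 60 bases of each are given 5′ to 3′ on the gene's strand from GENCODE transcripts (GRCm38), with capitals at the only base that differs.
mt-Nd3: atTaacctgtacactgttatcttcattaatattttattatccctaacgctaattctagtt
Gm28438: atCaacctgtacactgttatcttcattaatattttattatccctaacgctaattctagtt
Over the 345 bases compared there was 1 difference, T3C, counted from 1 at the 5′ end, with the mitochondrial base first. Gm28438 held 60 to 189 counts a library, and mt-Nd3 made up 76.9 to 90.9% of the sum of both. With both summed (an alternative chosen after seeing the data), the mean log2 difference was 1.64 for WT+ZnO NPs against WT and -1.25 for KO+ZnO NPs against WT+ZnO NPs, with p = 0.1 for each by exact permutation, the smallest possible. The genes mt-Co2, mt-Atp6, mt-Co3 and mt-Nd4l share 98.8% or more of their 50-base stretches with other annotated transcripts, mostly copies in the same block. For mt-Nd4 it was 62.2%, for mt-Co1 51.1% and for mt-Atp8, the lowest mitochondrial gene per length, 0%. Only annotated transcripts were searched, and mt-Atp8 lies between mt-Co2 and mt-Atp6, which both have annotated copies in the block. A copy of mt-Atp8 without annotation would not have been counted. The block as a whole held 2700 to 6457 counts a library. The levels of the genes that share stretches are uncertain for that reason.

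In the nucleus, Ndufs5, a subunit of the complex I iron-sulfur group, shares 21.7% of its stretches of 50 bases with the processed copy BC002163. Ndufs5 was counted 306 to 1609 times and took 15.7 to 63.8% of the summed counts of the pair, with KO replicates 1 and 2 and KO+ZnO NPs replicate 3 at 62.1 to 63.8% and the other 9 libraries at 15.7 to 30.5%. By itself it had a log2 fold change of 1.04 (SE 0.49, adjusted p = 0.208) for KO against WT in edgeR. With both summed (chosen after seeing the values), the mean log2 difference was -0.43 for KO against WT and 0.77 for KO+ZnO NPs against KO, with p = 0.1 for each by exact permutation, the smallest possible. Ndufa12 and its copy Gm15920 gave -0.42 and 0.66 in the same way.

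Other genes of the mitochondrion were counted as lists. Of 77 tested mitochondrial ribosomal proteins, which translate the 13 mitochondrial messages, 50 were called higher in KO+ZnO NPs against KO and 0 lower (median 0.51), where 6.57% of all genes were called higher. In KO against WT 11 were called lower (median -0.35), beside 3.58% of all genes. In WT+ZnO NPs against WT 14 were called higher and 4 lower, both smaller shares than the 20.8% and 22.1% of all genes. Mrps28 had the highest value of these in KO+ZnO NPs against KO, 0.85 (SE 0.18, adjusted p = 0.0153 in edgeR). Of 42 OXPHOS assembly factors, 6 were called higher in KO+ZnO NPs against KO (median 0.43) and 3 lower in KO against WT (median -0.34). Cox16, a complex IV assembly factor, had an interaction of 1.15 (SE 0.22, adjusted p = 0.0161 in edgeR). Of 13 genes of the tricarboxylic acid cycle, 4 were called higher in KO+ZnO NPs against KO, led by Mdh2, malate dehydrogenase (0.75, SE 0.18, adjusted p = 0.0213 in edgeR). Of 7 electron and metabolite carriers, 3 were called higher there and 3 lower in KO against WT, with Etfb, an electron transfer flavoprotein subunit, at 0.99 (SE 0.23, adjusted p = 0.0211 in edgeR) and -0.86 (SE 0.23, adjusted p = 0.0462 in edgeR). Of 6 outer membrane genes, 2 were called higher in KO+ZnO NPs against KO. Of 19 glycolytic genes, 1 was called higher there, Ldhb, a lactate dehydrogenase subunit, at 1.68 (SE 0.48, adjusted p = 0.0420 in edgeR), and the median was 0.41.

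Of 11 regulators of mitochondrial biogenesis, edgeR called 2 higher in WT+ZnO NPs against WT (median 0.41), a smaller share than the 20.8% of all genes, 0 in KO against WT (median 0.02) and 0 in KO+ZnO NPs against KO (median 0.23). The 2 counts of 0 had 2 and 2 genes at an unadjusted p below 0.05, and DESeq2 called 1 and 1. The Nrf1 and Gabpa genes, whose products bind the motifs shown above, had log2 fold changes of 0.30 and 0.10 in KO+ZnO NPs against KO (adjusted p = 0.188 and 0.614 in edgeR). Pprc1, a coactivator of the PGC-1 family, was called higher in WT+ZnO NPs against WT, at 0.86 (SE 0.16, adjusted p = 0.00174 in edgeR), and lower in KO+ZnO NPs against WT+ZnO NPs, at -0.86 (SE 0.16, adjusted p = 0.0314 in edgeR). Of 16 genes of mitochondrial transcription and genome upkeep, 6 were called higher in WT+ZnO NPs against WT, a larger share than the 20.8% of all genes. There 1 was called lower, a smaller share than the 22.1% of all genes, and both directions together came close to the 43.0% of all genes called. Of the same 16 genes, 1 was called higher and 1 lower in KO against WT, and 2 higher in KO+ZnO NPs against KO. Twnk, the mitochondrial DNA helicase, rose in WT+ZnO NPs against WT, at 1.19 (SE 0.13, adjusted p = 8.58e-05 in edgeR), and in KO against WT, at 0.52 (SE 0.13, adjusted p = 0.0348 in edgeR), with an interaction of -0.81 (SE 0.18, adjusted p = 0.0258 in edgeR). Slirp, which binds mitochondrial messenger RNA, fell in both, with log2 fold changes of -0.77 (SE 0.26, adjusted p = 0.0337 in edgeR) and -0.95 (SE 0.26, adjusted p = 0.0488 in edgeR). Tfam, which packages and transcribes mitochondrial DNA, had 0.27 and 0.25 in the 2 particle comparisons (adjusted p = 0.0677 and 0.135 in edgeR).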

How the data were processed

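Skin RNA-seq libraries from 12 mice (4 groups of 3, grouped by their labels) were analysed. As deposited by the authors, the data are gene counts, whole numbers for 52636 Ensembl genes, not normalised. The submitters' processing notes name HISAT2 2.0.5 and mm10, while the study's methods name another aligner, so which made the counts is not settled. Messenger RNA had been purified on poly-T beads, so mitochondrial levels depend on transcript tails. Strand use in counting is not given in the sources used here.

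Gene names, positions and exon lengths came from GENCODE M21 (GRCm38), matched by gene ID for 52489 genes. Promoter windows came from RefSeq (GRCm38.p6). Libraries held 21076320 to 28867802 counts. Genes passing edgeR's default expression filter (18822) were fitted together over all 12 libraries in edgeR 4.0.16 under R 4.3.3 (TMM factors, quasi-likelihood test, 4 group means, common dispersion 0.1092). Genes were called at a Benjamini-Hochberg adjusted p below 0.05 over all tested genes, and SE is that of the log2 fold change. Summed levels and shares were compared by a two-sided exact permutation test over libraries, where the smallest p of 3 against 3 is 0.1. DESeq2 1.42.0 was an alternative. The fit was tested on simulated data. Named genes were, in each comparison and direction, the 3 genes with the largest called change at 10 CPM or more, beside the paralogue pairs, complex II and the mitochondrial genes. Genes singled out otherwise were chosen after their values were seen. The members and lists were chosen with earlier results of these data known. Numbers were taken to pair libraries where all same-numbered deviations correlated above 0.1. This held for KO with KO+ZnO NPs (0.395, 0.13 and 0.143), the first pair being the libraries of these groups that both hold Y-linked transcripts, and not for the other comparisons, where the lowest was -0.394.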

Additional observations from a re-analysis of the deposited data

Results flagged for a closer look

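For 12 OXPHOS genes the difference between particle-treated and untreated skin itself differed between KO and WT, by the interaction test of edgeR with adjusted p below 0.05. Among nuclear genes the interaction values (log2, positive where the difference was higher in KO) were 1.25 for Ndufa4, 1.18 for Cox7b, 0.99 for Ndufb11, 0.93 for Atp5mpl, 0.89 for Ndufc2, 0.88 for Ndufb4, 0.85 for Ndufb3, 0.84 for Ndufb6, 0.79 for Atp5l, 0.74 for Ndufb8 and 0.64 for Cox6a1. For mt-Nd3 the value was -2.33. Ndufa4 and mt-Nd3 were called in 19 of 20 alternatives, Ndufb6 in 17, and Cox6a1 in 3. The alternative that ended the call of all 12 was the covariate for Y-linked transcripts, which all WT+ZnO NPs libraries and no WT library held, and with it calls over all genes fell from 1633 to 125 of 18822. In the same test 6 of 8 anagen hair follicle markers were called negative, and 2 of 6 immune, 1 of 4 endothelial and 1 of 8 adipocyte markers positive. The part of these cells was not tested.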

How the results depend on the processing

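Counts of OXPHOS genes called changed by more than 1.5 times under some settings, and no OXPHOS gene that was called and is named changed direction. Values without a call did change sign: the nuclear median of KO+ZnO NPs against WT+ZnO NPs, 0.10, was -0.01 without WT+ZnO NPs replicate 2, and the mitochondrial share in KO against WT, -0.08, was 0.0767 as a share of OXPHOS counts and 0.0248 without WT replicate 3. For KO against WT the count of 6 became 23 in DESeq2, 1 with Y-linked transcripts as a covariate and 38 with edgeR on only the libraries compared. Over all genes these settings called 3003 of 33243, 962 of 18822 and 2794 of 17608, beside 1540 of 18822 in the main fit. For WT+ZnO NPs against WT the count of 25 became 14 with no filter on low counts and 8 with the covariate, where 7358 of 33243 and 3896 of 18822 of all genes were called. For KO+ZnO NPs against KO the count of 71 became 19 on only the libraries compared, where 571 of 17613 of all genes were called. For KO+ZnO NPs against WT+ZnO NPs the count of 1 became 5 in DESeq2, and 0 with the covariate and on only the libraries compared, settings in which 1 of 18822 and 0 of 17610 genes of the whole table were called. For the interaction the count of 12 became 7 with library size only, 7 with no filter, 25 in DESeq2, 7 with the replicate block and 0 with the covariate. Over all genes these settings called 1661 of 18822, 1086 of 33243, 3129 of 33243, 1429 of 18822 and 125 of 18822. Leaving out 1 library at a time gave 0 to 12, 10 to 31, 17 to 78, 0 to 4 and 2 to 21 genes in these 5 comparisons, in that order. Calls over all genes then ran from 377 to 2060, 5942 to 9095, 451 to 3195, 1 to 1609 and 461 to 1646. The cause was not tested, beyond the smaller number of libraries where some were left out. With the replicate number as a block the other counts were 4, 20, 65 and 1. No OXPHOS gene named as called in KO+ZnO NPs against KO, where the numbers were taken to pair, then lost its call. Of 12 libraries, 7 correlated best with their own number.

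As a share of OXPHOS counts in place of all counts, the log2 difference of the mitochondrial transcripts was 0.0805 for WT+ZnO NPs against WT and 0.0163 for KO+ZnO NPs against KO, since the nuclear genes are then in the denominator. Leaving out 1 library at a time, the difference in their share of all counts was -0.18 to 0.02 for KO against WT, 0.45 to 0.71 for WT+ZnO NPs against WT, 0.63 to 0.77 for KO+ZnO NPs against KO and -0.09 to 0.17 for KO+ZnO NPs against WT+ZnO NPs. Among values of single genes under alternatives, 606 kept direction and side of the threshold or moved less than the replicate spread, 212 kept direction and missed the threshold, and 2 moved. The fewest counts of a tested mitochondrial gene were those of mt-Atp8, 21 to 104 counts a library.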
